A study of Mus musculus with 2 samples.

Results

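Tall narrower peaks from a Tcf1 ChIP-seq experiment on naive CD8+ T cells are described here, called regions under a length limit over which many fragments of the WT library piled up. They were chosen by measured values. Of 21764 deposited peaks on chr1 to chr19 (22286 in all), 676 had a pileup of at least 200 and a length under 1500 bp. The pileup is the number of WT fragments that cover the summit, the position of highest coverage in a peak. Another 20805 peaks under 1500 bp had a pileup below 200 and are called the other narrower peaks, and 43 tall peaks of 1500 bp or more were not members. Members were narrower than those 43 and not than the other narrower peaks, with a median length of 790.0 bp against 436.0 bp.

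The series holds 2 ChIP-seq libraries made with an antiserum raised against Tcf1, 1 from WT cells and 1 from Tcf1-deficient cells. Both came from splenic naive CD8+ T cells sorted as GFP+ TCRbeta+ CD62Lhi CD44lo-med CD8+. The sources do not describe the control alike: its title says Tcf1-deficient, its genotype field reads Tcf1-/-Lef1-/-, the design text names hCD2-Cre with floxed alleles and a Rosa26 GFP reporter, and the methods for this ChIP name Cd4-Cre with floxed Tcf7. The control group is called Tcf1-deficient below, and whether Lef1 was also missing was not tested. How many mice went into a library is not given in the sources used here, and ages are given for the study's mice as a whole and not by library. With 1 library per group there is no replicate check, peaks are not replicates, and the sorted cell type cannot be checked from markers in a peak list.

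Tcf1, encoded by Tcf7, and Lef1 are HMG-box transcription factors that bind the minor groove of DNA and bend it. They can recruit beta-catenin, the coactivator of canonical Wnt signalling, or Groucho/TLE corepressors. In the thymus Tcf1 takes part in commitment to the T lineage, both factors keep CD4+ lineage genes silent in CD8+ T cells, and in peripheral CD8+ T cells Tcf1 is known for keeping naive, memory and stem-like cells in their states.

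The sequences at the summits of 8 members with a low level in the control library show the letters that the counts below refer to. Each is the plus strand of the mm9 build (NCBIM37), 50 bases to each side of the summit, which stands at position 51. Capitals mark the Tcf/Lef core ATCAAAG, its TTCAAAG form and the Runx core TGTGGTT on either strand, so that a core on the minus strand appears as its reverse complement. A match is a description of letters and not a site. The first 5 are the windows with the core nearest to Rap1b, which encodes a small GTPase of integrin signalling (chr10:117385094-117385194), in Znrf3, a ubiquitin ligase that removes Wnt receptors (chr11:5311749-5311849), nearest to Il6st, the gp130 cytokine receptor (chr13:113215089-113215189), in Pdcd1lg2, the PD-1 ligand PD-L2 (chr19:29528729-29528829), and just upstream of Cd8b1, the beta chain of the CD8 co-receptor (chr6:71272569-71272669). Znrf3, Il6st and Cd8b1 held both forms of the core, and Znrf3 also held the Runx core.
Rap1b: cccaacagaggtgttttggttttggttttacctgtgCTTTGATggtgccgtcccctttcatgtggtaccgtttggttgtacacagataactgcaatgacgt
Znrf3: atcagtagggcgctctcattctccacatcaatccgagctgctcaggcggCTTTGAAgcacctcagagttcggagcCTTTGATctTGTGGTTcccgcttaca
Il6st: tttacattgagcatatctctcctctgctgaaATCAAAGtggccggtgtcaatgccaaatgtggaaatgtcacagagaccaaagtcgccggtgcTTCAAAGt
Pdcd1lg2: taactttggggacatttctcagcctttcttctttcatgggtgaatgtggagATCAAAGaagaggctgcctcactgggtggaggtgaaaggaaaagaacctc
Cd8b1: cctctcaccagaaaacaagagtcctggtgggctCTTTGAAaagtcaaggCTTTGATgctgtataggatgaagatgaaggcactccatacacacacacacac
The next one holds TTCAAAG alone, in Dennd5a, which encodes a regulator of Rab GTPases (chr7:117094926-117095026). It is followed by a pair of windows that hold none of the letters searched, the Fasl member (chr1:163709324-163709424) and the Runx3 promoter member (chr4:134676262-134676362). Fasl encodes the Fas ligand that kills target cells, and Runx3 is the Runx factor of CD8+ T cells.
Dennd5a: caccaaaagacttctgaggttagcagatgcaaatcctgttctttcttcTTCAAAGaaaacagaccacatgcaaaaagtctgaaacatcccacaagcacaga
Fasl: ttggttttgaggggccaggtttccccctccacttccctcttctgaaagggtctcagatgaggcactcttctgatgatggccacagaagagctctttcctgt
Runx3: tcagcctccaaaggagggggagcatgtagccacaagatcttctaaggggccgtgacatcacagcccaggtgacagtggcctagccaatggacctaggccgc

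The level of the control library at each summit, computed back as (pileup + 1)/fold enrichment - 1 and on the scale of the WT depth, separated the 676 members into 2 sets, which flag where the control library was also high. A control level of 50 or less was found for 583 members, of which 393 were within 0.01 of the lowest level, 5.42, 576 were under 17 and 7 lay between 17 and 50. These are called low-control members. The other 93, called high-control members, had a control level over 50. The level 5.42 was also the median of the other narrower peaks, and no narrower peak fell below it. It is read as a floor of the local level and not as control fragments counted at a summit. Fold enrichments of peaks at 5.42 rest on that floor. Fold enrichment is the deposited ratio of the WT pileup to this local control level. It was at least 4 in 596 members, 583 of 583 at low control levels and 13 of 93 at high ones, beside 86.2% of all deposited autosomal peaks. The members were selected on the same WT pileup, so nothing is read from that count. The control level is computed from that pileup too, and its limit of 50 takes out 93 of 676 members but 37 of 20805 other narrower peaks. Each difference with an interval below is therefore given over all members, and values at low control levels stand beside most of them. Some shares and medians without an interval are of low-control members only, and are named so.

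**Figure D1:**
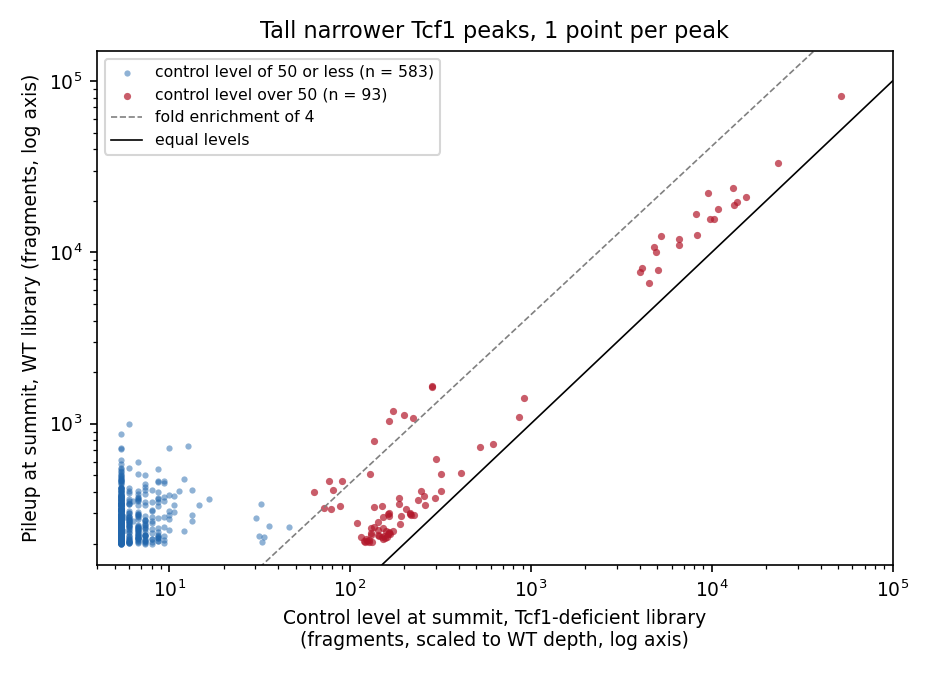
Pileup at the summit in the WT library (vertical, log axis) against the local control level from the Tcf1-deficient library (horizontal, log axis), 1 point per member. Blue marks control levels of 50 or less (n = 583) and red levels over 50 (n = 93). The dashed line is a fold enrichment of 4 and the solid line equal levels. The blue points stand at the left edge with pileups from 200 to 997, and most red points lie between the lines up to a pileup of 81986.

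Among the 583 low-control members the pileup ran from 200 to 997 with a median of 251 (quartiles 221 and 313), and fold enrichment had a median of 37.6. Their median length was 808 bp. The tallest was 31.2 kb upstream of Tcf7 (chr11:52126992-52128354), with 997 WT fragments against a control level of 6.02. Its nearest Tcf/Lef core stood 88 bp from the summit, outside the window of 50 bases to each side. The Fasl member, 9.04 kb downstream of the start and outside the gene, reached 874 against 5.42 and held no core within 100 bp.

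The next members by pileup were nearest to Rap1b, Itprip, Akap2 and Znrf3. The Rap1b member (chr10:117384722-117385649) was 102 kb upstream of the gene, with 742 fragments against a control level of 12.7. The Itprip member (chr19:47984337-47985187) lay in an intron shared in the annotation by Itprip, a regulator of IP3 receptors, and Wdr96, with 721 against 10.03, and held none of the cores. In an intron of Akap2, a scaffold of protein kinase A, 720 fragments stood against 5.42. In intron 1 of Znrf3 712 stood against 5.42. All of these control levels were under 13, and so were those of the next 6 in height.

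Those next 6 began with Ccnt2, a cyclin of the elongation kinase P-TEFb, at 616 fragments against 5.42. Its summit was 80 bp from a transcript start inside Ccnt2, which puts it in the promoter class, although the nearest coding start was 22.3 kb away. Intron 1 of Tpm4, a tropomyosin, held 599 against 6.69, and a site 50.1 kb upstream of Il6st held 580 against 5.42. Intron 1 of Dennd5a held 553 against 5.42, and intron 4 of Pdcd1lg2 held 551 against 6.02. The last of the 12, 2.39 kb upstream of 4933403G14Rik, a gene known by its clone name, held 544 against 5.42. Of the 12 tallest, 8 had the Tcf/Lef core within 100 bp, beside 23.0% of all 583 low-control members. Dennd5a, 1 more, had TTCAAAG, which left Fasl, Itprip and Ccnt2 with neither.

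The 8 largest fold enrichments came from the same set of 12: 142 at Tcf7, 136 at Fasl, 112 at Akap2, 111 at Znrf3, 96.1 at Ccnt2, 90.5 at Il6st, 86.3 at Dennd5a and 84.9 at 4933403G14Rik. Rap1b and Itprip, which followed Fasl by pileup, had fold enrichments of 54.2 and 65.5 with control levels of 12.7 and 10.03. For 182 of the 583 low-control members the 95% Poisson interval reached under 200, and for 233 of the other low-control narrower peaks it reached 200.

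At the limits the values were continuous. Just inside the pileup limit were Fhit, Fam105b and Lrpprc, each at 200 fragments with control levels of 7.35, 8.02 and 5.42. Just outside were Lemd2, Dclre1a and Acvr2a, each 1 fragment short of it, with control levels of 8.02, 5.42 and 5.42. By length, the longest members were at Creb1 (1499 bp, pileup 207), Olfr9 (1491 bp, pileup 201) and Il21r (1491 bp, pileup 289). The shortest tall peaks left out were at Map4k4 (1513 bp, pileup 387), Grcc10 (1527 bp, pileup 375) and Fbxw7 (1545 bp, pileup 213).

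Position was not used by the rule, and tall members lay less often at promoters. A promoter here is a summit within 1 kb of any annotated transcript start. It held 119 of 676 members (17.6%) against 8262 of 20805 other narrower peaks (39.7%), a difference of -22.1 percentage points (95% Newcombe interval -24.9 to -19.0). Among low-control members 90 were at promoters (15.4%), 246 in introns (42.2%), 232 between genes (39.8%) and 15 in exons (2.57%). Against narrower peaks of pileup 100 to under 200 the promoter share of all members differed by -7.99 points (-11.3 to -4.4), and by -10.4 points (-13.8 to -6.7) at low control levels only. These intervals cover counting error of peaks in 1 list and say nothing about other animals or libraries.

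**Figure D2:**
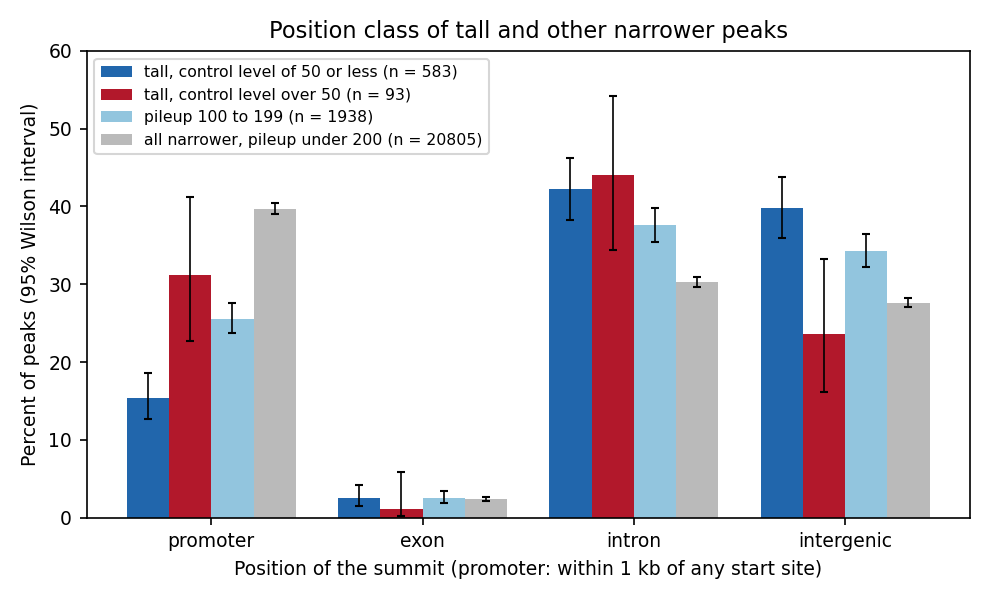
Percent of peaks (vertical, with 95% Wilson intervals) by position class of the summit (horizontal), for tall members at low control levels (dark blue), tall members at high control levels (red), narrower peaks of pileup 100 to under 200 (light blue) and all narrower peaks of pileup under 200 (grey). The promoter bar falls from 39.7% in the grey group to 25.6% at pileup 100 to under 200 and 15.4% in the tall low-control members, while intron and intergenic bars are higher.

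Introns and intergenic sites took up the difference. Of the low-control members in introns of annotated coding transcripts, 90 of 233 (38.6%) were in intron 1, beside 38.0% of the other narrower peaks in introns. The median distance to the nearest coding start was 17.6 kb, and 24.02 kb for the distal ones (all that are not at promoters), beside 20.2 kb for other distal narrower peaks. A coding start more than 50 kb away was found for 158 of 557 distal members (28.4%) against 25.1% of the others, a difference of 3.27 points whose interval held 0 (-0.398 to 7.22). At low control levels only it was 4.55 points (0.611 to 8.79). Promoter members were poorer in G and C in their medians, which were not tested. The median GC content around the summit was 54.0% in 90 low-control promoter members and 62.2% in other promoter peaks, while distal members (48.3%) and other distal peaks (48.8%) were close in their medians. Low-control members were 2.04% of the low-control narrower peaks of chr2, the smallest share of a chromosome, and 3.45% of those of chr9, the largest.

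Among low-control members, the tallest at promoters after Ccnt2 included T cell genes. The Cd8b1 member (chr6:71272119-71273142), with a summit 211 bp upstream of the start, had 520 fragments against a control level of 5.42, and its core lay 2 bp from the summit with a TTCAAAG beside it. The Prdm10 member had 472 against 5.42 and owed its class to a small RNA gene annotated as snoU13, 450 bp away, since the nearest coding start was 9.08 kb off. The Susd3 member had 464, the Runx3 member 423 with a summit 255 bp upstream of the start, and the member nearest to Ddx20, an RNA helicase, 408. Of these 6 promoters only Cd8b1 held the Tcf/Lef core within 100 bp.

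The Tcf/Lef core was more frequent under tall members than under other narrower peaks. It lay within 100 bp of 142 of 676 summits (21.0%) against 1939 of 20805 (9.32%), 11.7 points higher (8.76 to 14.9). In windows of the same length 2 kb to each side the share was 3.40% for members and 3.27% for other narrower peaks, and the reversed letters GAAACTA, which keep the base composition, were found at 1.78% and 2.41% of summits. Against all other narrower peaks the difference was called in both position classes: 21.4% against 12.5% at distal sites, 8.83 points higher (5.58 to 12.5), and 19.3% against 4.44% at promoters, 14.9 points higher (8.78 to 22.9). Against peaks of pileup 100 to under 200 it was smaller, 3.82 points at distal sites (0.0183 to 7.87), where those peaks had 17.5%, and 5.62 points at promoters (-1.31 to 14.1), where they had 13.7% and the interval held 0. The share at tall promoters against tall distal sites was not tested.

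Without the high-control peaks the core share of members was 134 of 583 (23.0%), 13.7 points above the others (10.4 to 17.2). In those 134 the core was close to the summit, at a median of 12 bp, and 94 of them (70.1%) had it within 25 bp. The median was 15 bp in peaks of pileup 100 to under 200 that held a core and 20 bp in all other narrower peaks with one. Over all members with a core 97 of 142 (68.3%) had it within 25 bp, against 57.4% of other narrower peaks that held a core, 10.9 points higher (2.57 to 18.3). The TTCAAAG form was under 139 of 676 members (20.6%) and 9.75% of the others, 10.8 points higher (7.9 to 14), and 13.4 points higher (10.1 to 17) at low control levels. Peaks of pileup 100 to under 200 held it at 16.05%, and the difference to them was not tested. Its share was 20.3% against 12.7% at distal sites and 21.85% against 5.29% at promoters, also not tested. One or both forms were under 243 low-control members (41.7%). Of the low-control members 7 held 2 copies of the core, among them the Smad7 promoter class member, the Arrb2 exon member and intergenic sites nearest to Chrna9, Sipa1l2, Tns4 and Fbxo15.

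Height beyond the limit did not bring a steady increase. Among low-control peaks the share with the core was 7.29% at pileup 18 to 24, 7.70% at 25 to 49, 11.0% at 50 to 99 and 16.8% at 100 to under 200. Inside the members it was 46 of 283 (16.3%) at 200 to 249, 45 of 136 (33.1%) at 250 to 299, 23 of 109 (21.1%) at 300 to 399 and 20 of 55 (36.4%) at 400 to 997, with intervals that overlap between neighbours except at the step from the first to the second range. The intervals of the 200 to 249 range and of the range below the limit overlapped (12.4% to 21.0% and 15.2% to 18.6%). The core difference to peaks of pileup 100 to under 200 was 4.44 points for all members (1.07 to 8.04) and 6.13 points (2.46 to 10.1) at low control levels.

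**Figure D3:**
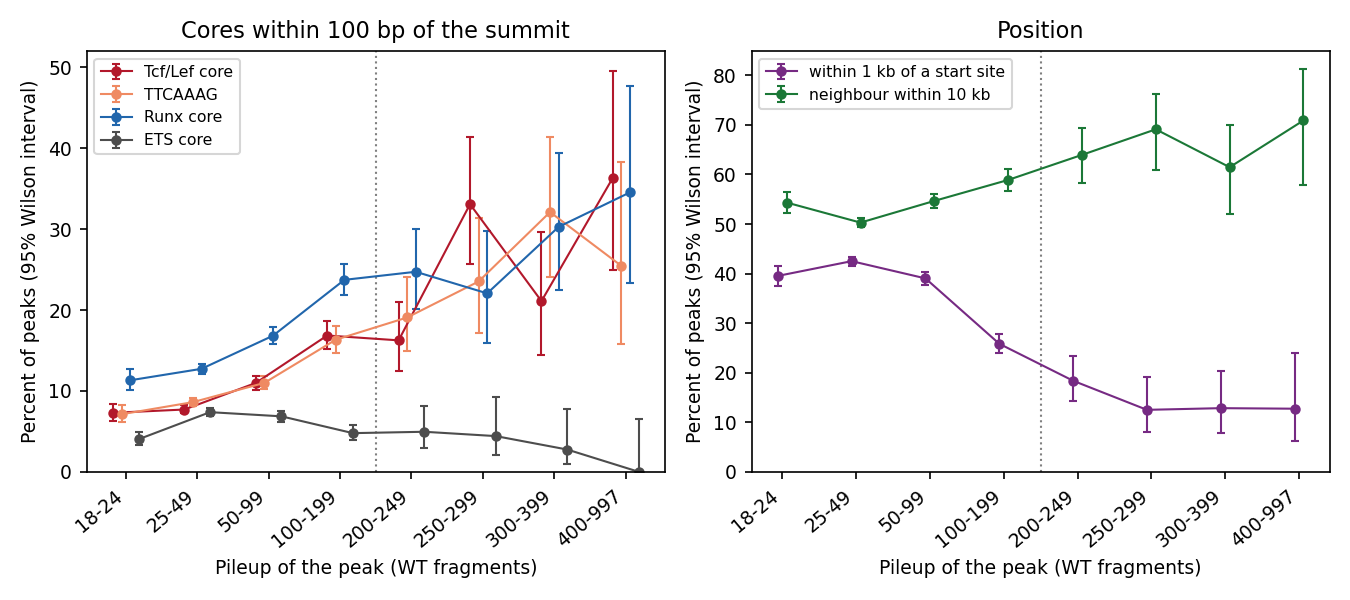
Percent of low-control narrower peaks (vertical, with 95% Wilson intervals) by pileup range (horizontal), with the limit of 200 as a dotted line. Left, peaks with each core within 100 bp of the summit, where the Tcf/Lef core goes from 7.29% in the lowest range to 36.4% in the highest. Right, peaks within 1 kb of a transcript start, with 39.5% in the lowest range, 42.5% in the next and 12.5% to 12.8% in the 3 highest, and peaks with another deposited summit within 10 kb, 54.3% and 70.9% in the lowest and highest ranges.

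Runx factors partner with Tcf1 in T cells and ETS factors such as Ets1 and Fli1 are abundant there, so their cores were searched too. The Runx core lay under 158 of 676 members (23.4%) against 14.6% of other narrower peaks, 8.75 points higher (5.68 to 12.1), with 4.36% in the flanking windows of the members and 5.19% in those of the others. Within position classes it was 25.1% against 20.4% at distal sites, 4.71 points higher (1.21 to 8.54), and 15.1% against 5.81% at promoters, 9.32 points higher (3.95 to 16.9). At low control levels these differences were 7.33 points (3.49 to 11.5) and 10.9 points (4.53 to 19.9). Against peaks of pileup 100 to under 200 the interval held 0, with 23.4% on both sides and a difference of -0.053 points (-3.65 to 3.75), and so it did with 2.35 points (-1.58 to 6.50) at low control levels. Both the Tcf/Lef and the Runx core were under 20 of 676 members (2.96%), all of them at low control levels (3.43% of those). Beside these stood 1.32% of the other narrower peaks and 2.58% of peaks of pileup 100 to under 200, with no test.

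The ETS core CGGAAGT went the other way, under 23 members (3.40%) against 6.63% of other narrower peaks, a difference of -3.23 points (-4.41 to -1.55). Its share was larger at promoters, 12.8% of other narrower peaks there and 2.60% of distal ones. At distal sites 2.69% of 557 members held it, a difference of 0.0939 points (-1.0 to 1.82). At promoters 6.72% of 119 members did, a difference of -6.04 points (-9.39 to -0.00964), and with 8.89% of 90 low-control members it was -3.87 points with an interval that held 0 (-8.25 to 3.84). Against peaks of pileup 100 to under 200 it was -1.34 points (-2.88 to 0.517). None of the Tcf/Lef, TTCAAAG, Runx and ETS letters was within 100 bp of 304 of 676 members (45.0%) and 229 of 583 low-control members (39.3%). Beside these stood 64.2% of other narrower peaks and 48.8% of peaks of pileup 100 to under 200, with no test.

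Tall members also had another Tcf1 peak close by more often. Another deposited summit lay within 10 kb of 453 of 676 (67.0%) against 52.7% of other narrower peaks, 14.4 points higher (10.7 to 17.9), and 8.03 points higher (3.8 to 12.1) than peaks of pileup 100 to under 200. The share was 66.1% against 57.9% at distal sites, 8.16 points higher (4.04 to 12.1), and 71.4% against 44.7% at promoters, 26.7 points higher (18.0 to 34.1). At low control levels these differences were 7.62 points (3.23 to 11.8) and 19.8 points (9.41 to 28.9). The 583 low-control members were nearest to 527 protein-coding genes, 480 of them with 1 member, 39 with 2, 7 with 3 and 1 with 4. The nearest gene is a name by position and not a target.

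Cblb, a ubiquitin ligase that restrains T cell receptor signalling, was nearest to 4 low-control members, more than any other gene. One was inside its intron 4 with 256 fragments, and the others stood 326 kb to 356 kb upstream with 251, 201 and 201, each with a control level of 5.42. The 7 genes with 3 members were Arl4c, Cxcr4, Fasl, Gramd3, Ptk2b, Rplp1 and Smad7. The 3 at Cxcr4, the receptor for CXCL12, were 10.5 kb, 13.7 kb and 19.7 kb upstream with 221, 221 and 345 fragments. The 3 at Ptk2b, the Pyk2 kinase, were all in its introns with 342, 234 and 228. At Rplp1, a ribosomal protein gene, they were 206 kb, 235 kb and 244 kb away, and the 1 with 295 fragments had a control level of 13.4 and a 31-base summit sequence found 495 times in the genome.

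Lists of genes of known function show which T cell genes the tall members sat next to. They were drawn up with earlier results of these data known, so they describe and do not test. Over all 21281 protein-coding genes of chr1 to chr19, 527 (2.48%) were nearest to a low-control member and 46.6% to any deposited peak. Among the 9917 genes nearest to any deposited peak the share with a low-control member was 5.31%. Gene length and spacing were not adjusted for.

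In the Tcf/Lef and Wnt pathway 6 of 24 genes had a low-control member, and 17 of the 24 were nearest to some deposited peak. Tcf7 had a second member 26.4 kb upstream with 232 fragments and a core 3 bp from its summit. Znrf3 had a second one at its own start, with 267. Lef1 had members 4.36 kb upstream with 474 and 96.0 kb upstream with 331, each with TTCAAAG and neither with ATCAAAG. Tle4, a Groucho corepressor, had 1 at 392, 97.6 kb upstream, and Tcf7l2, another Tcf factor, had 2 in introns with 334 and 312, their cores 1 bp and 17 bp from the summits. Ctnnb1, the beta-catenin gene itself, had 1 at 252, 133 kb upstream, with a core 10 bp from the summit. Among the other genes of the list, the tallest low-control narrower peaks were at 185 nearest to Aes and 156 nearest to Axin2.

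Of 25 matched T lineage transcription factor genes 8 had a member (32.0%). After Runx3 came Runx1 with 391 and 220 in intron 2, Ikzf1 with 378 in intron 3, Fli1 with 318 in intron 1, Bcl11b with 241 in intron 1 and Satb1 with 239 at a site 330 kb upstream. Ets1 and Foxp1 were the others. Of these 9 members 1 held the Tcf/Lef core, the one 230 kb from the Ets1 start with 212 fragments. The share over all low-control members was 23.0%, so this count does not set the list apart. Ikzf3, Gata3, Bach2 and Tox had their tallest narrower peaks under the limit, at 187, 167, 153 and 152.

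T cell receptor and proximal signalling genes had the largest share of the lists, 9 of 23 (39.1%), a description with no test, and each of the 23 was nearest to some deposited peak. Besides Cd8b1, the phosphatase gene Ptprc (CD45) had a member of 500 fragments in intron 2 with a core 14 bp from the summit and another of 279 upstream. Rasgrp1, which activates Ras, had 239 at a site 74.6 kb upstream, in the promoter class through the start of Gm13982. The kinase gene Zap70 had 228 at its start and 222 in intron 1, and Cd4, a gene silent in CD8+ T cells, had 218 in intron 1 against a control level of 5.42. Cd6, Sla2 and Plcg1 were among the others. The genes of the CD3 chains and Cd8a had no tall member, with tallest narrower peaks of 93 at Cd3d, 90 at Cd8a, 69 at Cd3e and 33 at Cd3g.

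Cytokine receptor, STAT and SOCS genes had members at 9 of 28 (32.1%). After Il6st came Il18r1, the IL-18 receptor, with 403 in intron 2, the kinase gene Jak1 with 391 in the promoter class through a U6 start 792 bp away and 291 in an intron, Il7r, the IL-7 receptor that naive cells need to survive, with 313 at a site 45.2 kb upstream, Tgfbr3 with 299 and Il12rb2 with 293. The Il18r1, Il7r, Tgfbr3 and Il12rb2 members each held TTCAAAG and the Runx core and lacked ATCAAAG. Il21r, Stat5b and Tgfbr2 were the others. Il2ra, the high-affinity chain of the IL-2 receptor, was just under the limit at 194.

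Homing genes had 3 of 18 (16.7%). Besides Cxcr4 they included Ccr7, the receptor for lymph node chemokines, with 209 at a summit 23 bp from its start. Cytotoxic and effector-fate genes had 4 of 25 (16.0%). Fasl had members of 353 and 251 beside the one of 874. Prdm1, the Blimp-1 repressor, had 401 in intron 4 with a core 7 bp from the summit. Ifng, interferon gamma, had 318 at a site 193 kb downstream of its start and 244 at 21.8 kb upstream, and Gzmb, granzyme B, had 233 at 34.0 kb upstream. These effector genes are little expressed in naive cells, and expression was not measured in these libraries.

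Costimulatory and inhibitory receptor genes had 2 of 17 (11.8%), Icos with 255 in intron 1 and Tigit with 243 at a summit 103 bp from its start. Survival genes had 2 of 14 (14.3%), the kinase gene Pim1 with 243 at 61.8 kb upstream and Bcl2 with 217 in intron 1. Of 20 matched B cell, myeloid and NK lineage genes 0 had a tall low-control member and 11 were nearest to some deposited peak, the tallest narrower ones at 174 nearest to Tyrobp and 118 nearest to Klrk1, an NK receptor gene. At Pax5, the B cell factor, the tallest had 85. At the share over all genes fewer than 1 of these 20 would have a member, so the count of 0 does not set the list apart.

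**Figure D4:**
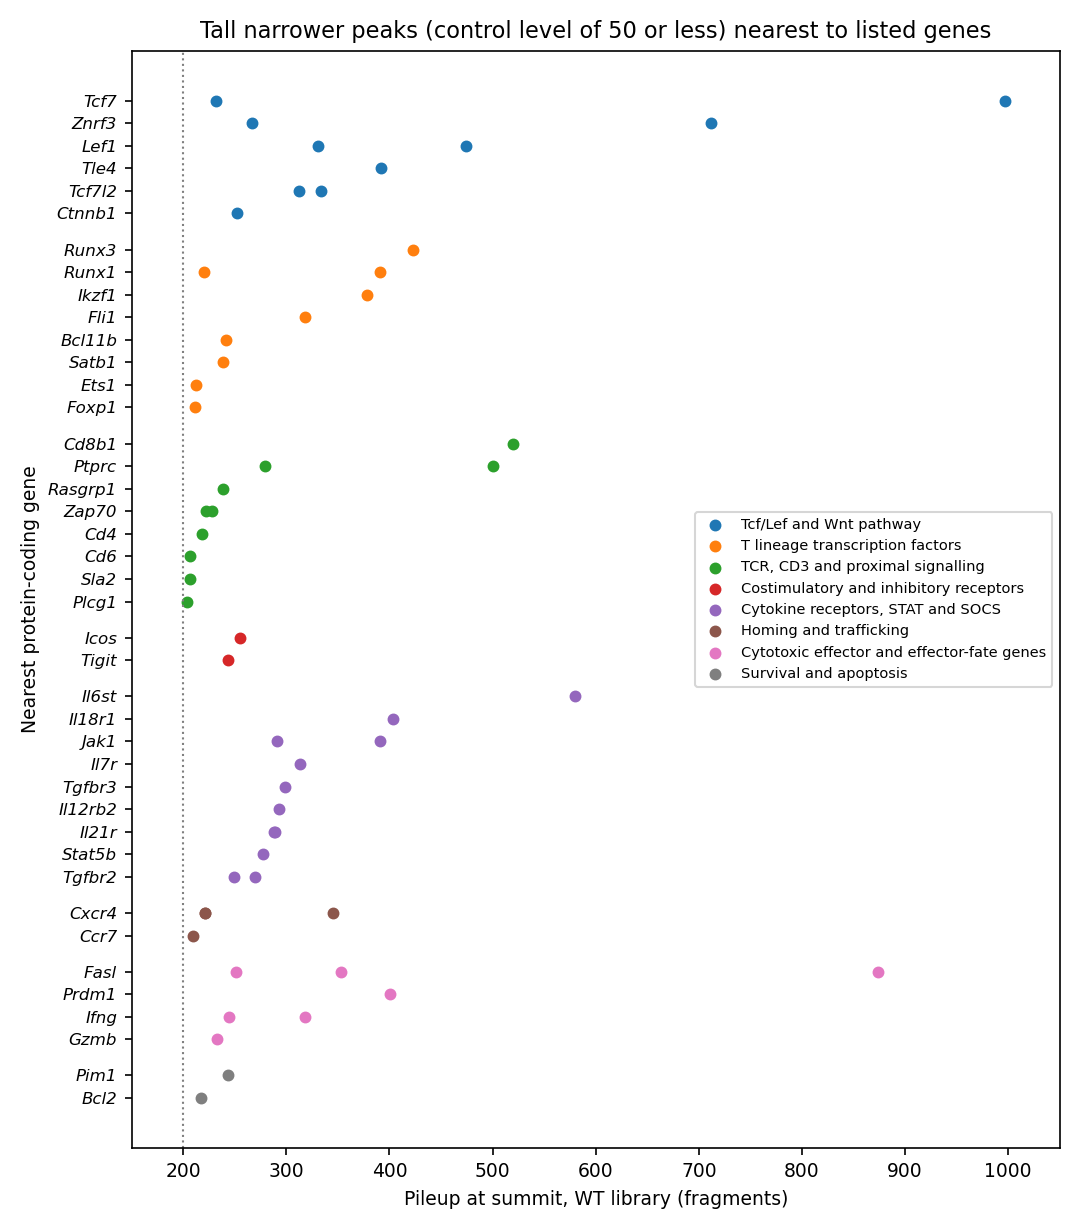
Pileup at the summit in the WT library (horizontal) of the low-control members nearest to the listed genes shown (vertical, ordered by tallest member within a list), coloured by list, with the limit of 200 as a dotted line. Tcf7 at 997, Fasl at 874 and Znrf3 at 712 stand to the right, and most other genes lie between 200 and 400.

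The 93 members with a high control level were mostly clustered. Joined where neighbours lay within 1 Mb, they fell into 33 groups, 26 of them single peaks, and 51 members were in the 2 largest groups. The tallest peak of the list was here, with 81986 WT fragments against a control level of 52050 nearest to Gm10800 on chr2 (fold enrichment 1.57). The next 5, all on chr9 and nearest to Gm10718, Gm17535, Gm10717, Gm11167 and again Gm10718, had 33076 to 19642 fragments and fold enrichments from 1.36 to 2.38 in their group. One of their windows is shown for contrast, from the Gm10718 member of 33076 fragments (chr9:3024422-3024522 of mm9, plus strand, summit at position 51), which holds none of the letters searched.
Gm10718: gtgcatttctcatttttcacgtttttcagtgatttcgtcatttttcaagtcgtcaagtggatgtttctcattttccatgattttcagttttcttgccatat

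Many of them had repeated sequence at the summit. The 31 bases around the summit occurred more than once in the genome for 50 of 93 high-control members (53.8%) and 19 of 583 low-control ones (3.26%), a description with no test. It did so for 19 of 19 members in the group of 34.2 kb on chr9, with up to 70 copies. The 32 members of the largest group lay within 61.4 kb of chr11 (chr11:3038456-3099834) nearest to Sfi1 and Eif4enif1, had 203 to 507 WT fragments against control levels of 109.6 to 172, and only 1 of them had a repeated 31-base summit sequence in the reference. Whether the reference holds every copy of this locus was not checked, so that count does not show that these summits are single in the genome. The part of repeated sequence in the high control levels was not tested.

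The Tcf/Lef core was found at 8 of the 93 (8.60%) and the Runx core at 6 (6.45%), beside 23.0% and 26.1% of the low-control members, given with no test since the control level comes from the same values as the rule. Their median length was 480 bp. For 13 of the 93 the fold enrichment was still at least 4, all of them single: they were nearest to Cr2, Axin2, Gphn, Jarid2, Txndc11, Hic2, Filip1l, Ccdc3, Pxmp3, Cdk8, Samd9l, Tspan3 and Limd1. The tallest of these, in an intron of Filip1l with 1667 fragments against 284, and the one nearest to Axin2, 88.7 kb from its start with 1085 against 223, held no core. Members at control levels between 17 and 50 were nearest to Arhgef26, Hjurp, Gm15319, Myom2, Arhgap21, Rpp21 and Cntnap5b, with fold enrichments of 5.35 to 10.4.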

How the data were processed

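Tcf1 ChIP-seq was performed by the authors on 1 WT and 1 Tcf1-deficient library. Reads were aligned by the authors with Bowtie2 2.2.5 to mm9 and peaks called by MACS2 2.1.1.20160309 (paired-end, p under 1e-05), with the Tcf1-deficient library as control. For its high-confidence peaks the paper also required a fold enrichment of 4 or more and set an FDR limit. Of the 676 members 80, all at high control levels, were under that fold enrichment. Duplicates removed, 36938606 WT and 27625250 control fragments remained. The deposited signal (pileup) is an unscaled coverage in whole fragments, the deposited fold enrichment is a ratio with a pseudocount of 1 on both sides, the deposited −log10 p-value is Poisson, and the deposited −log10 q-value is its adjusted form. Control levels carried the depth ratio of 1.34: of 190 low-control members above the lowest level, 185 were whole multiples of 0.669, the step that 0.5 of a control fragment gives at that ratio, within 0.02 of a multiple.

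Members and gene lists were chosen with earlier results of these data known. Start sites, exons and nearest coding genes came from GENCODE vM1 on NCBIM37, the same build. Cores were searched within 100 bp of the summit on both strands. Shares were compared as differences with Newcombe intervals (95%), which cover counting error only. A difference was called where its interval left out 0. Of 16 differences 7 were planned and 9 added after the data were seen (each over all members and at low control levels), with no adjustment for their number. The genome used has no repeat masking, so the planned masked share was replaced, after the files were seen, by copies of the 31 bases at the summit. Python 3.11.15, pandas 2.3.3, scipy 1.17.1 and pysam 0.24.0 were used, and scripts were tested on simulated data. Named genes were the 12 tallest low-control members, the 6 tallest of high control level, the 8 of largest fold enrichment and the 6 tallest low-control promoters. Up to 6 genes a list, the genes with most members and 3 peaks on each side of a limit were named too. Others were singled out after their values were seen (the 13 singles, members with 2 cores, members of control level 17 to 50, listed genes under the limit). Some items are not reported here.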

Additional observations from a re-analysis of the deposited data

Results flagged for a closer look

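Chromosome X was outside the comparisons and held 33 peaks of pileup 200 or more and length under 1500 bp, of which 32 had a control level over 50. Just 1 reached a fold enrichment of 4. It lay in the promoter class (X:166424766-166425299), nearest to Gm17379 at 1.58 kb, with 253 WT fragments against a control level of 39.3, a fold enrichment of 6.31 and no Tcf/Lef core. It was set apart because it is a signal in data that no comparison used. Chromosome Y held 38 such peaks, all with a control level over 50 and fold enrichments up to 2.42.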

How the results depend on the processing

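Of 59 alternatives over 9 results, 46 planned and 13 added after the data were seen, 50 kept the direction and the call, or moved a count by less than 1.5 times. The number of members was 1244 at a pileup limit of 150, 367 at 250 and 220 at 300. Against narrower peaks of pileup 100 to under 200 only, the Runx core difference turned to -0.053 points and the ETS core difference was -1.34 and the Tcf/Lef core difference at promoters 5.62 points, with intervals that hold 0. With control levels of 50 or less as well, these were 2.35, -0.832 and 6.18 points, again with intervals that hold 0. The Tcf/Lef core difference over both position classes stayed called over 13 alternatives, between 4.44 and 23.5 points, the promoter share over 9, between -24.3 and -7.99 points, and the neighbour share over 4, between 4.59 and 12.7 points. The causes were not tested. No paired analysis was possible because each group has 1 library and no replicate number, and no library could be left out. Counting error at a pileup of 200 limits which peaks are members.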
